A study of Mus musculus with 12 samples.

Results

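The condensin and cohesin subunits described here are 10 mouse genes, of 12394 with a single symbol in the platform annotation, measured by 23 of the 22690 probe sets of an Affymetrix expression array. They were chosen by name, as the probe sets that the platform annotation gives to 1 of these genes alone, under its current or a former symbol. Condensin I is represented by all 5 of its subunit genes (Smc2, Smc4, Ncapd2, Ncapg and Ncaph; 9 probe sets), and cohesin by 5 genes (Smc1a, Smc3, Rad21, Stag1 and Stag2; 14 probe sets). All 10 genes had a main probe set above the filter on weak signals, and 22 of the 23 probe sets were tested. The cells were primary mouse embryonic fibroblasts, connective tissue cells from embryos at embryonic day 13.5, cultured to passage 2. The 4 groups were wildtype untreated, Rb null untreated, wildtype treated with cisplatin, and Rb null treated with cisplatin, with 3 arrays each. Cisplatin, a platinum drug that crosslinks DNA, was given at 16 µM for 24 h before harvest. Rb, encoded by Rb1, is a repressor of cell cycle genes. The labels do not give the strain, the form of the null allele or how many embryos a culture held.

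Condensin and cohesin are ring-shaped protein machines that hold DNA in loops, each built on a pair of SMC ATPases closed by a kleisin subunit. Condensin compacts chromosomes as cells enter mitosis. Cohesin holds sister chromatids together from replication until anaphase, shapes chromatin loops in interphase and takes part in repair of DNA breaks. Genes of the condensin subunits are known to be transcribed more in dividing cells, and E2F factors, which Rb restrains, are among the regulators of many such genes.

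The series' design text describes 4 RNA samples, each hybridized 3 times, so the p-values below measure how repeat hybridizations of 1 RNA varied, not the spread between cultures or embryos. Fewer cells of a type and less RNA per cell cannot be told apart in such samples. Arrays of a group correlated at 0.981 to 0.992 over 12 pairs, and arrays of different groups at 0.806 to 0.952 over 54 pairs, over the log2 signals of all tested probe sets. Rb1 signal was 459.7 ± 35.4 (SD, n = 3) and 94.0 ± 9.99 in wildtype and Rb null arrays without drug, and 382.9 ± 60.1 and 89.6 ± 14.5 with drug, low in both Rb null groups. The untreated wildtype arrays stood apart in sex-linked RNA: Xist, the RNA that silences 1 X chromosome in female cells, was at 132.2 ± 26.7 there against group means of 2379 to 3443, and the Y-linked Eif2s3y was at 478.1 ± 7.9 against 1.27 to 6.63. Every comparison that uses the untreated wildtype arrays carries this difference, which cannot be told apart from genotype or treatment there. It also lies between the wildtype groups: treated wildtype arrays had Xist at 2379 ± 198.2 and Eif2s3y at 1.27 ± 0.981. A rise or fall in wildtype cells below is therefore a difference between RNA samples that also differ in sex-linked RNA. The comparisons of the treated genotypes and of Rb null cells with and without drug do not use the untreated wildtype arrays. All 10 fibroblast markers had signal on all arrays, and their sum was 53507 to 55460 in wildtype and 53705 to 55763 in Rb null arrays without drug, and 49913 to 52357 and 37004 to 38138 with drug. The summed signal of 10 macrophage and leukocyte markers, none at 0 on any array, was 4724 to 5072, 6396 to 6609, 9309 to 9949 and 4103 to 4221 in the same order. Summed signals of 5 epithelial markers were 295.0 to 552.7 on arrays without and 1152 to 1352 on arrays with drug, those of 5 neural markers were 3997 to 4343 in untreated wildtype and 1229 to 2421 elsewhere, and those of 4 endothelial and 5 muscle markers were at most 664.2 on any array. The ratio of 3′ to 5′ signal, a measure of RNA integrity, was 0.759 to 0.80 without and 0.782 to 0.881 with drug for Gapdh, and 1.10 to 1.23 without and 1.19 to 1.32 with drug for beta actin, so both ran somewhat higher with drug. The part of these other signals in the results below was not tested.

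Without drug, all 5 condensin I genes were higher in Rb null than in wildtype cells, by 2.26-fold to 3.78-fold. Smc2, an ATPase shared by condensin I and II, had signals (probe set 1448635_at) of 580.4, 648.5 and 739.4 on the untreated wildtype arrays and 1921, 1968 and 1977 on the untreated Rb null arrays. Its partner ATPase Smc4 (1452197_at) gave 832.9, 854.3 and 819.1 against 2070.5, 2274 and 2182. For both ATPases the lowest Rb null array lay far above the highest wildtype array, while arrays within a group lay close together. The difference in log2(signal + 10.4) was 1.57 ± 0.089 (SE) for Smc2, a 2.96-fold change with a Benjamini-Hochberg adjusted p of 6.56e-09 in limma, and 1.37 ± 0.061 for Smc4, a 2.58-fold change with an adjusted p of 5.9e-10.

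The non-SMC subunits of condensin I showed the same direction. Ncapd2, a HEAT-repeat subunit, gave 286.0, 249.6 and 260.2 in wildtype and 894.8, 1097 and 1112 in Rb null cells (1423847_at). Ncapg, the other HEAT-repeat subunit, gave 87.7, 73.4 and 84.8 against 299.3, 227.3 and 247.2 (1429171_a_at). Ncaph, the kleisin that closes the condensin I ring, gave 281.9, 305.0 and 239.2 against 707.1, 604.4 and 590.5 (1423920_at). No Rb null array overlapped a wildtype array for any of the 3 genes. The share of all probe sets without overlap was not counted, in this or other comparisons, so a lack of overlap does not set members apart. With no fold minimum, 4598 of 13575 probe sets had an adjusted p under 0.05 in limma between untreated genotypes. Ncapd2 had the largest log2 difference of the 10 members, 1.92 ± 0.094 or 3.78-fold (adjusted p = 1.24e-09). Ncapg differed by 1.53 ± 0.14 (2.89-fold, adjusted p = 7.31e-07) and Ncaph by 1.18 ± 0.15 (2.26-fold, adjusted p = 2.72e-05).

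**Figure D1:**
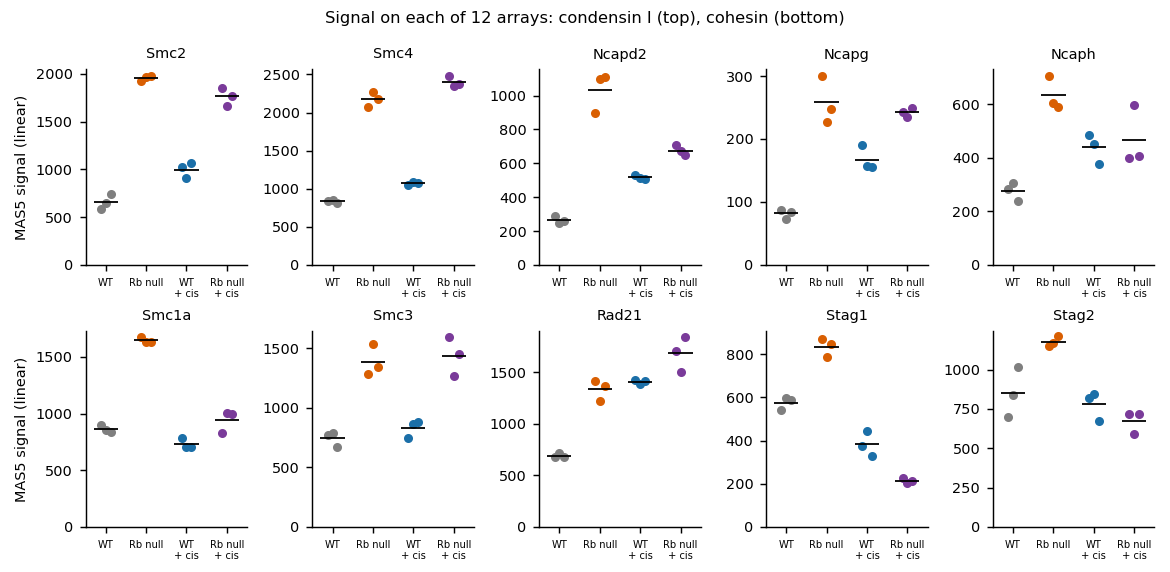
Signal of the main probe set of each member on each of the 12 arrays, in 4 groups of 3 on a linear axis from 0 (WT, wildtype; cis, cisplatin; bars, group means). Untreated wildtype holds the lowest group mean for 7 members, and treated Rb null cells the lowest for Stag1 and Stag2.

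The cohesin core was also higher in untreated Rb null cells, by less than 2-fold. Smc1a, an X-linked ATPase subunit, gave 902.0, 857.0 and 837.1 in wildtype and 1678, 1634 and 1635 in Rb null cells (1417830_at). Smc3, its partner ATPase, gave 774.3, 786.3 and 668.6 against 1284, 1538 and 1345 (1450950_at). Rad21, the mitotic kleisin that separase cleaves at anaphase, gave 673.9, 715.6 and 682.2 against 1421, 1221 and 1365 (1416161_at). The wildtype and Rb null arrays did not overlap for any of these core subunits. The log2 differences were 0.92 ± 0.081 for Smc1a (1.9-fold, adjusted p = 6.76e-07), 0.89 ± 0.1 for Smc3 (1.86-fold, adjusted p = 1.09e-05) and 0.94 ± 0.081 for Rad21 (1.92-fold, adjusted p = 5.64e-07).

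The interchangeable STAG subunits, which dock on the kleisin, stayed under the 1.5-fold minimum that a call required besides an adjusted p under 0.05. Stag1 gave 542.5, 597.7 and 586.4 in wildtype and 872.9, 786.2 and 845.7 in Rb null cells (1431921_a_at), a log2 difference of 0.53 ± 0.1 (1.44-fold, adjusted p = 0.00119). Stag2, also X-linked, gave 696.0, 837.9 and 1014 against 1151, 1166 and 1212 (1421849_at), a log2 difference of 0.48 ± 0.13 (1.4-fold, adjusted p = 0.00872). The arrays of the 2 genotypes did not overlap for either gene, and without untreated wildtype array 3, Stag2 reached 0.62 and was called. In all, 8 of 10 members were called higher and 0 lower in untreated Rb null cells, and their median log2 difference was 1.06, against -0.0093 over the 7909 genes tested. Of all 13575 probe sets tested, 7.68% were called higher and 4.69% lower in this comparison. By complex, the median was 1.53 for condensin I and 0.89 for the cohesin genes. The X-linked members Smc1a and Stag2 differed by 0.92 and 0.48. The part of the sex-linked difference between these arrays in any member's value was not tested.

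RefSeq promoter sequences (GRCm38.p6) were at hand for 7 of the 10 genes; Smc4, Rad21 and Stag2 had no entry. The 250 bases before the annotated start are printed for 3 condensin genes whose RNA differed most between untreated genotypes. They are also printed for Stag1, which held an E2F match, and for Smc3, which held no match. Capitals mark matches on either strand to the E2F letters TTTCCCGC, TTTCGCGC, TTTGCCGC or TTTGGCGC, to the cell cycle homology region (CHR) letters TTTGAA or TTCGAA, or to CCAAT; a match on the other strand appears as its reverse complement. The regions lie at chr4:52438971-52439220 (plus strand) for Smc2, chr6:125191587-125191836 (minus strand) for Ncapd2, chr5:45669675-45669924 (plus strand) for Ncapg, chr9:100643198-100643447 (plus strand) for Stag1 and chr19:53600146-53600395 (plus strand) for Smc3.
Smc2: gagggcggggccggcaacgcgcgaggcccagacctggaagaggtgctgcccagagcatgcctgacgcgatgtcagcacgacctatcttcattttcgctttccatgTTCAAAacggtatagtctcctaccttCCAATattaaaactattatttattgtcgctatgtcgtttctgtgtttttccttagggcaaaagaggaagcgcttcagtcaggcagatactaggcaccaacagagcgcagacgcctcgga
Ncapd2: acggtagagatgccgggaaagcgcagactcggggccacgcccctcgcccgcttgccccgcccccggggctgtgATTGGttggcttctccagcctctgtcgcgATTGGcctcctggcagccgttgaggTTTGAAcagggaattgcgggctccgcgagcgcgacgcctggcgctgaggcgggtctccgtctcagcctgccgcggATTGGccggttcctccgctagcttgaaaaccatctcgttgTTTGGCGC
Ncapg: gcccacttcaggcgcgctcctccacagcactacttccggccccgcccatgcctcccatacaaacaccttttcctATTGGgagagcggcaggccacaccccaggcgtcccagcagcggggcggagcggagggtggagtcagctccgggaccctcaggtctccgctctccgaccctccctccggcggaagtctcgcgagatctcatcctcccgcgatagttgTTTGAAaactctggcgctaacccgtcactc
Stag1: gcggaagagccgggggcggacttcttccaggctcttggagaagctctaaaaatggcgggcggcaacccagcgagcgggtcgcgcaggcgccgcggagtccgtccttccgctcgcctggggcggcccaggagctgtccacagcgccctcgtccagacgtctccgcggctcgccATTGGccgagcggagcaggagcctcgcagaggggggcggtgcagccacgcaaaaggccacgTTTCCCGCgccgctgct
Smc3: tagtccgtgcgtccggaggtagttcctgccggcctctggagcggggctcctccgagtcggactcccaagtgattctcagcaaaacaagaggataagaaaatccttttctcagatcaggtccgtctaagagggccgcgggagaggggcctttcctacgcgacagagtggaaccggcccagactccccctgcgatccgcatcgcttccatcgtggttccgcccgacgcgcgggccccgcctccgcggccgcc
Ncapd2 carried the E2F letters TTTGGCGC from 8 to 1 bases before its start, and Stag1 carried TTTCCCGC between 17 and 10 bases before its start. These letters were in 2 of the 7 member promoters and in 1.86% of the 32851 promoters of the table. The CHR letters were in Smc2, Ncapd2 and Ncapg, 3 of 7, against 17.1% of all promoters. CCAAT was in 5 of 7 against 33.8%, with 3 copies in Ncapd2 and 1 each in Smc2, Ncapg, Smc1a and Stag1. Ncaph and Smc3 held none of the letters. The relation of the letters to the RNA signals was not tested. A match describes letters in this window and shows no binding.

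After cisplatin the 2 genotypes differed in fewer members. Smc4 and Smc2 and the cohesin ATPase Smc3 stayed higher in Rb null cells, and Stag1 was lower. Smc4 gave 1049, 1094 and 1070.5 in treated wildtype and 2484, 2351 and 2369 in treated Rb null cells, a log2 difference of 1.16 ± 0.061 (2.23-fold, adjusted p = 3.99e-09). Smc2 gave 1022, 904.7 and 1066 against 1856, 1666 and 1766, a difference of 0.82 ± 0.089 (1.76-fold, adjusted p = 4.08e-06). Smc3 gave 750.4, 864.3 and 880.7 against 1597, 1268 and 1453, a difference of 0.78 ± 0.1 (1.72-fold, adjusted p = 2.39e-05). These SMC genes were the 3 of 10 members called higher, and no array of one genotype overlapped the other for any of them. Stag1 ran the other way, at 372.9, 444.0 and 328.9 in treated wildtype and 224.3, 203.0 and 213.4 in treated Rb null cells. It was the 1 member called lower, with a log2 difference of -0.80 ± 0.1 (1.74-fold lower, adjusted p = 2.01e-05).

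The other 6 members did not pass both thresholds in treated cells. Ncapd2 differed by 0.38 ± 0.094 (adjusted p = 0.00388), Ncapg by 0.51 ± 0.14 (adjusted p = 0.00587), Smc1a by 0.36 ± 0.081 (adjusted p = 0.00209) and Rad21 by 0.25 ± 0.081 (adjusted p = 0.0194), all under 1.5-fold. Ncaph differed by 0.074 ± 0.15 (95% interval -0.25 to 0.39, adjusted p = 0.71) and Stag2 by -0.21 ± 0.13 (-0.48 to 0.064, adjusted p = 0.189), and their arrays overlapped between the genotypes. The interval for Ncaph lies below its untreated difference of 1.18. The members' median was 0.37, against -0.051 over all genes, and 9.21% of all probe sets were called higher and 12.9% lower. With arrays centred on their medians the share of calls that were higher moved from 41.6% to 51.6%, and the same counts of members, 3 higher and 1 lower, were called. In this comparison 8 of 10 macrophage and leukocyte markers and 7 of 10 fibroblast markers were also called lower in Rb null cells; their part in the Stag1 result was not tested.

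**Figure D2:**
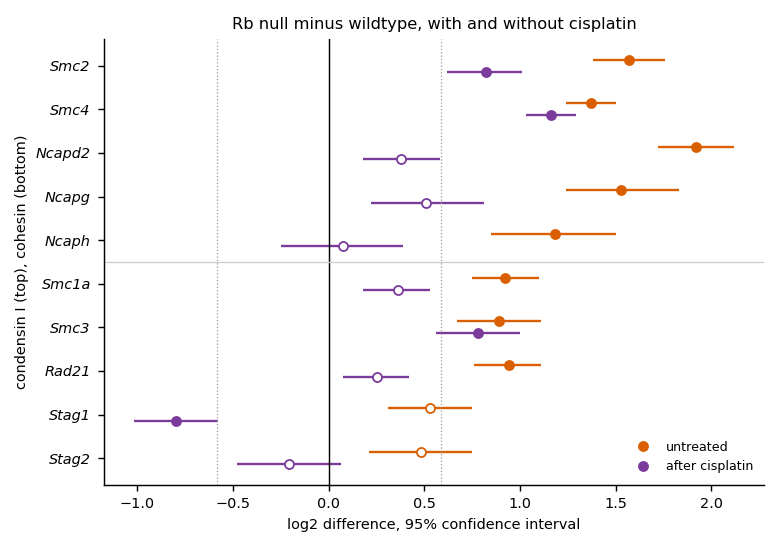
Log2 difference between Rb null and wildtype arrays for the main probe set of each member, without and with cisplatin, with 95% intervals; filled points were called, open points were not, and dotted lines mark 1.5-fold. The 5 condensin I genes all lie above 1 without drug, and Smc4 alone does so after cisplatin.

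In wildtype cells, 24 h of cisplatin went with higher signal of 4 of the 5 condensin I genes and of Rad21, and with lower Stag1. Ncapd2 went from 265.3 ± 18.7 (SD, n = 3) to 532.7, 516.1 and 504.6 with drug, a log2 rise of 0.94 ± 0.094 (1.92-fold, adjusted p = 8.88e-07). Ncapg went from 82.0 ± 7.56 to 189.8, 156.3 and 155.3, a rise of 0.94 ± 0.14 (1.92-fold, adjusted p = 3.96e-05). Ncaph went from 275.4 ± 33.4 to 485.9, 452.6 and 378.2, a rise of 0.65 ± 0.15 (1.57-fold, adjusted p = 0.00196). In each case the treated arrays lay above all untreated ones, although below the untreated Rb null arrays. Smc2 rose from 656.1 ± 79.8 to 997.6 ± 83.3, by 0.60 ± 0.089 (1.52-fold, adjusted p = 5.09e-05), close to the fold minimum. Smc4, at 835.4 ± 17.7 and 1071 ± 22.4, differed by 0.35 ± 0.061 (1.28-fold, adjusted p = 0.000189), under the fold minimum with no overlap of arrays.

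Rad21 was the cohesin gene that rose in wildtype cells. Its signals with drug were 1425, 1392 and 1414, against 690.6 ± 22.1 without, a log2 rise of 1.02 ± 0.081 (2.03-fold, adjusted p = 8.69e-08). The treated wildtype arrays thus lay within the range of or just above the untreated Rb null arrays for this gene. Stag1 fell from 575.5 ± 29.2 to 381.9 ± 58.1, by 0.59 ± 0.1 on the log2 scale (1.5-fold lower, adjusted p = 0.000237). Smc1a (-0.24 ± 0.081, adjusted p = 0.0228), Smc3 (0.16 ± 0.1, 95% interval -0.061 to 0.38, adjusted p = 0.206) and Stag2 (-0.11 ± 0.13, interval -0.38 to 0.16, adjusted p = 0.486) were not called. Of the 10 members, 5 were called higher and 1 lower, beside 13.5% and 13.2% of all probe sets. The median was 0.65 for condensin I and -0.11 for the cohesin genes, against 0.057 over all genes. Calls near the fold minimum were the least steady: without treated wildtype array a, Smc2 and Ncaph lost theirs and 3 members were called higher, and Stag1 was at -0.54 and not called with median centring. The comparison shares the untreated wildtype arrays with the untreated genotype comparison, so the values of both stand on the same 3 hybridizations. Those arrays also differ from the treated wildtype arrays in Xist and Y-linked RNA.

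In Rb null cells no member was called higher with cisplatin and 4 of 10 fell: Stag1, Stag2, Smc1a and Ncapd2. Stag1 dropped from 834.9 ± 44.3 to 213.6 ± 10.7 (SD, n = 3), a log2 change of -1.92 ± 0.1 (3.77-fold lower, adjusted p = 8.31e-10). Smc1a went from 1649 ± 25.2 to 832.3, 1002 and 998.1, a change of -0.80 ± 0.081 (1.74-fold lower, adjusted p = 7.15e-07). Stag2 went from 1176 ± 31.8 to 719.5, 589.2 and 714.2, a change of -0.80 ± 0.13 (1.74-fold lower, adjusted p = 6.2e-05). The treated arrays lay below all untreated Rb null arrays for these cohesin genes. Ncapd2 went from 1035 ± 121.3 to 675.1 ± 29.7, a change of -0.60 ± 0.094 (1.52-fold lower, adjusted p = 5.24e-05).

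The remaining members did not pass both thresholds in Rb null cells. Smc2 changed by -0.15 ± 0.089 (95% interval -0.34 to 0.042, adjusted p = 0.156), Ncapg by -0.079 ± 0.14 (-0.37 to 0.21, adjusted p = 0.631) and Smc3 by 0.049 ± 0.1 (adjusted p = 0.697). Smc4 changed by 0.14 ± 0.061 (adjusted p = 0.0541). Ncaph, where the second treated array at 596.2 stood above the others at 400.6 and 407.0, changed by -0.45 ± 0.15 (adjusted p = 0.0166). Rad21, at 1336 ± 102.8 without and 1684 ± 169.6 with drug, was higher by 0.33 ± 0.081 with no overlap of arrays (95% interval 0.16 to 0.50, adjusted p = 0.00255), under the 1.5-fold minimum. Over all probe sets 15.8% were called higher and 20.9% lower, and the members' median was -0.30 against -0.017 over all genes. Median centring moved the median over all tested probe sets by 0.15 and the share of calls that were higher from 43.0% to 56.3%. On that scale Ncapd2 was at -0.46 and lost its call, and the 3 cohesin genes kept theirs. The summed fibroblast signal was lower with drug in these cells (5 of 10 markers called lower), as was that of the macrophage list (8 of 10 lower, 1 higher), and their part in the falls of Stag1, Stag2 and Smc1a was not tested.

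**Figure D3:**
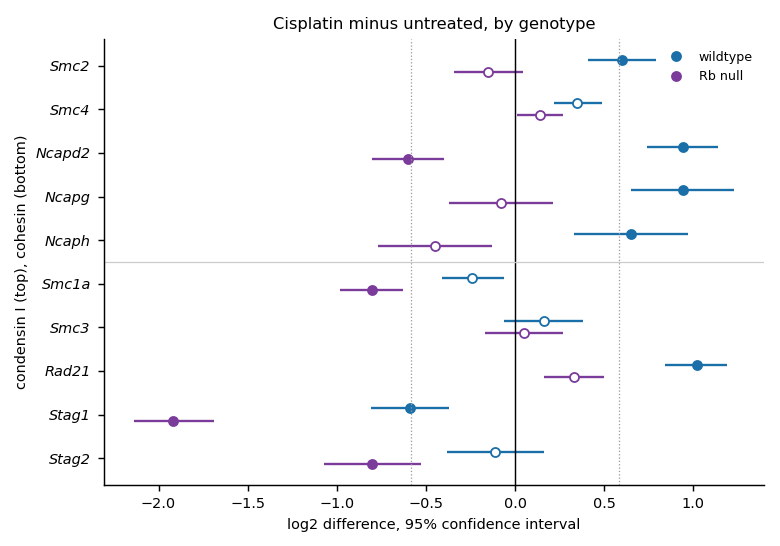
Log2 change with cisplatin in wildtype and in Rb null cells for the main probe set of each member, with 95% intervals; filled points were called, open points were not, and dotted lines mark 1.5-fold. Condensin genes and Rad21 lie higher in wildtype cells, and Stag1, Stag2 and Smc1a lie lowest in Rb null cells.

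The responses of the genotypes were compared directly, as the Rb null response minus the wildtype response. The difference was called for 7 of 10 members, all lower, beside 14.4% of probe sets called lower and 8.64% called higher, and the median over the members was -0.72 against -0.075 over all genes. Ncapd2 had the largest difference at -1.54 ± 0.13 (adjusted p = 7.8e-07), from a rise in wildtype and a fall in Rb null cells. Ncaph (-1.10 ± 0.21, adjusted p = 0.000996), Ncapg (-1.02 ± 0.19, adjusted p = 0.000876) and Smc2 (-0.75 ± 0.13, adjusted p = 0.00036) combined a called rise in wildtype with no called change in Rb null cells. Among the cohesin genes, Stag1 differed by -1.33 ± 0.15 (adjusted p = 9.48e-06), with a fall in both genotypes. Rad21 differed by -0.69 ± 0.12 (adjusted p = 0.000334) and Stag2 by -0.69 ± 0.18 (adjusted p = 0.00748), while the second Stag2 set gave -0.58 (adjusted p = 0.0187) and was not called. Smc1a, at -0.56 ± 0.12 (adjusted p = 0.00155), lay under the fold minimum. Smc4 (-0.21 ± 0.086, adjusted p = 0.0673) and Smc3 (-0.11 ± 0.15, 95% interval -0.43 to 0.20, adjusted p = 0.584) were not called, and these 2 genes also kept a genotype difference of over 1.5-fold with and without drug, as did Smc2. Centring on medians moved the median over all tested probe sets here by 0.10 and the share of calls that were higher from 37.5% to 51.6%. On that scale 7 members were called lower too. In this contrast 8 of 10 fibroblast markers (median -1.28) and 8 of 10 macrophage and leukocyte markers (median -1.68) were also called lower; their part in the members' differences was not tested.

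The orders of the group means summarise these patterns. For Smc2, Ncapd2, Ncapg and Ncaph the order was untreated Rb null, treated Rb null, treated wildtype, untreated wildtype; the 2 treated groups overlapped for Ncaph alone of these 4 genes, and the 2 Rb null groups for Ncapg and Ncaph. Smc4 and Smc3 had both Rb null groups above both wildtype groups, with the treated Rb null mean first; for Smc3 the arrays of the 2 Rb null groups overlapped, as did those of the 2 wildtype groups. Rad21 was lowest in untreated wildtype and highest in treated Rb null cells, and its 2 middle groups, treated wildtype and untreated Rb null, overlapped. Stag1 and Stag2 shared an order of their own, from untreated Rb null through untreated wildtype and treated wildtype down to treated Rb null, with no overlap between neighbours for Stag1; for Stag2 both wildtype groups overlapped each other and the treated Rb null group. Smc1a was highest in untreated Rb null cells and lowest in treated wildtype cells, and its treated Rb null and untreated wildtype arrays overlapped.

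Different probe sets of a gene gave the same direction in most cases. The 3 other Stag1 probe sets all showed the fall in Rb null cells. Probe set 1421940_at read 230.0, 245.0 and 216.6 without drug and 53.8, 45.5 and 52.2 with drug, a log2 change of -1.99. Probe set 1421939_a_at read 179.0, 185.1 and 171.0 against 60.6, 78.1 and 57.8, a change of -1.32. Probe set 1450420_at, whose low signals with drug put its mean log2 under the filter, so that it was not tested, read 389.1, 244.9 and 389.0 against 8.0, 19.3 and 12.3. For Stag1 the genotype difference after cisplatin was less even, at -0.80, -0.54 and -0.47 in the tested sets, of which the first alone was called, and the wildtype change was -0.59, -0.95 and -0.37, of which the last was not called.

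**Figure D4:**
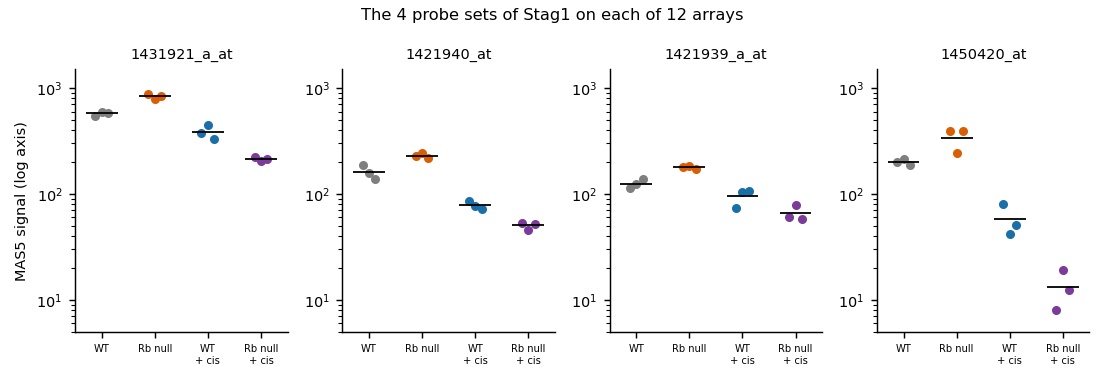
Signal of the 4 Stag1 probe sets on each of the 12 arrays, in 4 groups of 3 (log axis). Bars are group means; in every probe set the mean of the treated Rb null arrays is the lowest and that of the untreated Rb null arrays the highest.

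Both condensin and cohesin members had other probe sets that differed in size. The other Smc4 sets gave 1.09 and 1.45 between untreated genotypes and 1.44 and 1.33 between treated ones, so that this difference was as large after cisplatin by these sets. The other Rad21 sets gave 1.03 and 0.90 for the wildtype response, and 1455938_x_at among them can cross-hybridize by its suffix. Ncapg rose by 0.67 in wildtype cells in its second set, and Ncaph by 0.91 in 1436707_x_at. This Ncaph set was brighter than the main one but can cross-hybridize by its suffix. Between treated genotypes it gave 0.36 (adjusted p = 0.0137), under 1.5-fold, and its arrays did not overlap there, unlike those of the main set. The Smc1a sets gave -0.59 and -0.75 for the Rb null response. The second Stag2 set, 1450396_at, gave -0.50 for it and was not called, so the fall of Stag2 rests on 1 of 2 sets. The second Smc3 set, 1450951_at, with signals of 97.7 to 195.9 on all arrays, gave -0.14 between untreated genotypes and 0.33 between treated ones (adjusted p = 0.16), so the Smc3 results rest on the stronger set. Counted by probe set, 16 of 22 were called higher in untreated Rb null cells, beside 7.68% of all probe sets. In treated Rb null cells 5 were higher and 1 lower (9.21% and 12.9%). With drug 9 were higher and 2 lower in wildtype cells (13.5% and 13.2%), and 0 higher and 8 lower in Rb null cells (15.8% and 20.9%). For the difference of responses 13 were lower (14.4%). Sets of 1 gene measure the same gene, so these are not separate counts of genes.

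Genes that work with these complexes were read from lists of partners. Condensin II, which acts in the nucleus before mitosis, had probe sets for Ncapg2 and Ncaph2. Both were called higher in untreated Rb null cells, beside 7.68% of all probe sets. Ncapg2 gave 126.2, 143.2 and 136.5 in wildtype and 645.0, 621.2 and 659.8 in Rb null cells without drug. With drug it gave 601.2, 484.2 and 558.4 in wildtype and 346.3, 414.3 and 473.8 in Rb null cells. It rose 3.82-fold with drug in wildtype cells (log2 1.93 ± 0.12, adjusted p = 3.8e-09) and then lay just below the untreated Rb null arrays. Its change in Rb null cells of -0.64 ± 0.12 (adjusted p = 0.000211) was not called after quantile normalization or median centring. The difference of responses was -2.57 ± 0.16 (adjusted p = 5.47e-08), larger than for any member. Ncaph2 differed by 1.07 ± 0.15 between untreated genotypes (adjusted p = 5.41e-05), and its difference of responses of -0.63 ± 0.21 (adjusted p = 0.0281) was not called after quantile normalization or median centring, while its other sets gave -1.12 and -0.84, both called.

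Of 9 genes for cohesin loading, release and acetylation, 5 were tested. Among them 1 was called higher in untreated Rb null cells, 1 lower in treated Rb null cells, 2 higher with drug in wildtype cells, 1 lower with drug in Rb null cells and 3 lower for the difference of responses (Cdca5, Esco1 and Mau2). Over all probe sets the shares in these directions were 7.68%, 12.9%, 13.5%, 20.9% and 14.4%, and with 5 genes a single call lies near them. Cdca5, the sororin that keeps cohesin on replicated chromatids, was the gene higher in untreated Rb null cells (1.65 ± 0.095, adjusted p = 6.62e-09) and rose in wildtype cells with drug (1.32 ± 0.095, adjusted p = 2.74e-08), while in Rb null cells it changed by 0.090 ± 0.095 (adjusted p = 0.426). The second Cdca5 set, 1448466_at, had means of 167.7 in untreated wildtype, 337.3 in untreated Rb null and 266.3 in treated wildtype cells. These differences ran the same way and were smaller. Esco1, an acetyltransferase of Smc3, gave 536.1, 538.7 and 544.9 in treated wildtype and 217.7, 207.1 and 220.6 in treated Rb null cells, a difference of -1.29 ± 0.083 (2.44-fold lower, adjusted p = 2.44e-08). Between untreated genotypes Esco1 differed by -0.34 ± 0.083 (adjusted p = 0.00598), under the fold minimum. The other Esco1 set, 1424325_at, lay under the filter on weak signals and was not tested. Its means ran the other way, at 54.7 in treated wildtype and 79.6 in treated Rb null cells. Without drug they were 21.8 and 38.7, so the Esco1 values rest on the stronger set. The probe sets of the loader subunit Mau2 disagreed: with drug in wildtype cells the main set, 1 with the _s_at suffix for probes shared between transcripts, was called higher (0.75 ± 0.15, adjusted p = 0.000505), another was called lower (-0.70, adjusted p = 0.00689) and the third gave -0.22 (adjusted p = 0.278), so no direction is given for Mau2. Its partner Nipbl was called in no comparison, with log2 values from -0.55 to 0.27. Pds5a, a cohesin regulator, fell in Rb null cells by 0.66 ± 0.12 on the log2 scale (adjusted p = 0.000165), a call lost with median centring.

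Both tested genes of cohesin protection and cleavage were called higher in Rb null than wildtype cells, without and with drug. Over all probe sets 7.68% and 9.21% were called higher in these comparisons. Sgo1, the shugoshin that shields centromeric cohesin, differed by 2.25 ± 0.11 without (adjusted p = 9.77e-10) and 1.37 ± 0.11 with drug (adjusted p = 1.48e-07). Pttg1, the securin that restrains separase, gave 1822, 1617 and 1702 in untreated wildtype cells, the lowest of the 4 groups, and 7895, 8659 and 7887 in treated Rb null cells, the highest. Pttg1 rose by 1.44 ± 0.059 with drug in wildtype (adjusted p = 6.54e-11) and by 0.64 ± 0.059 in Rb null cells (adjusted p = 2.39e-07), the latter not called after quantile normalization. Its other probe sets gave 0.96 (adjusted p = 5.77e-06) and 0.38 (adjusted p = 0.202) for the Rb null response of Pttg1, the first called and the second not. Of all probe sets, 13.5% were called higher with drug in wildtype and 15.8% in Rb null cells.

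Of the 6 SMC5/6 genes, which form the related repair complex, 1 was called higher in untreated Rb null cells and 0 in treated ones, beside 7.68% and 9.21% of all probe sets. With drug 1 was called higher in wildtype and 1 lower in Rb null cells, and 2 were called lower for the difference of responses (Nsmce4a and Nsmce2), beside 13.5%, 20.9% and 14.4%. With 6 genes a single call lies near these shares. Nsmce4a, a subunit of this complex, differed by 1.17 ± 0.088 without drug (adjusted p = 1.17e-07) and rose by 1.14 ± 0.088 with drug in wildtype cells (adjusted p = 5.7e-08). Nsmce2, a SUMO ligase of the complex, fell in Rb null cells with drug by 1.05 ± 0.16 on the log2 scale (adjusted p = 4.79e-05). Smc5 differed by 0.57 ± 0.075 between treated genotypes (1.48-fold, adjusted p = 2.22e-05), just under the fold minimum, and was called there after quantile normalization or median centring; its second probe set gave 0.94 (adjusted p = 0.00021) and was called. Of 5 chromosome scaffold partners, 3 were called higher in untreated Rb null cells (Top2a, Kif4 and Mki67). In treated Rb null cells 1 was called higher (Mki67, 1.45 ± 0.092, adjusted p = 1.93e-08). With drug 3 were called lower in Rb null cells (Top2a, Top2b and Kif4). Over all probe sets these shares were 7.68%, 9.21% and 20.9%. With drug in wildtype cells 1 was higher (Top2a) and 1 lower (Top2b), beside 13.5% and 13.2%. For the difference of responses 4 were lower, beside 14.4%. With 5 genes a single call lies near such shares.

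Top2a, the topoisomerase that untangles mitotic chromosomes beside condensin, gave 596.6, 511.7 and 511.0 in wildtype and 2474, 2406 and 2402 in Rb null cells without drug. With drug it gave 1186, 1100.5 and 1068 in wildtype and 1108, 1276 and 1414 in Rb null cells. The treated groups overlapped, and their difference of 0.17 ± 0.091 (adjusted p = 0.13) compares with 2.15 ± 0.091 without drug (adjusted p = 4.15e-10). Kif4, the chromokinesin that works with condensin I on mitotic chromosomes, differed by 1.22 ± 0.1 without drug (adjusted p = 4.62e-07) and fell with drug in Rb null cells by 1.28 ± 0.1 on the log2 scale (adjusted p = 6.91e-08). In wildtype cells Kif4 changed by 0.062 ± 0.1 (adjusted p = 0.642). Ctcf, which halts cohesin at loop borders, was called by its main probe set for the difference of responses only (-0.81 ± 0.13, adjusted p = 0.000204), and its second set was also called higher with drug in wildtype cells (0.66, adjusted p = 0.000539). The meiotic subunits Smc1b, Rec8 and Stag3 lay under the filter on weak signals and were not tested. Group means were at most 11.9 for Smc1b and 8.77 for Rec8. Stag3 had means of 42.7 and 40.3 in wildtype and 121.0 and 143.9 in Rb null arrays, without and with drug.

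**Figure D5:**
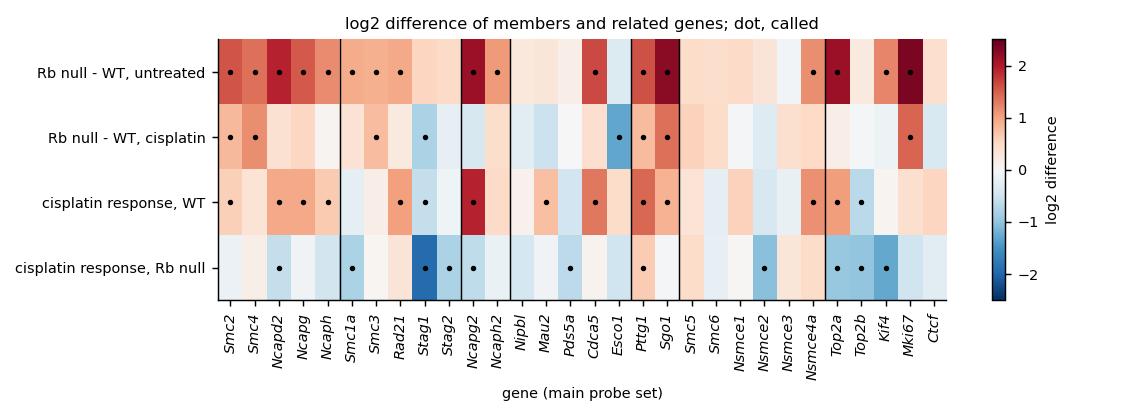
Heat map of the log2 difference (colour scale in log2 units) of the 10 members and the tested partner genes in 4 comparisons, with a dot where a gene was called; vertical lines part the lists. Ncapg2, Sgo1, Top2a and Mki67 show over 2 log2 units between untreated genotypes. Between treated genotypes Esco1 is lowest at -1.29 by its main probe set, while its weaker, untested set ran the other way.

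The genes whose 4 group means lay closest to those of each member, after centring each gene on its own mean over the 4 groups, were ranked among 7899 other genes by the root mean square difference of log2 signals. Nearest to Smc2 was Zwilch (0.0472), a kinetochore protein, and nearest to Ncapd2 was Cdca3 (0.0493), followed by Kitl (0.077), a growth factor gene, and the mitotic kinase gene Cdk1 (0.0825). The 3 nearest to Smc4 were Ska2 (0.109), Nek2 (0.115) and Zwilch (0.12). Nearest to Ncapg were Nup85 (0.0665), the spindle checkpoint gene Mad2l1 (0.0686) and Exo1 (0.0705), and to Ncaph it was Ifrd2 (0.0592). Among the cohesin genes the nearest were Tnfaip8l1 for Smc1a (0.0438), Nup43 for Smc3 (0.0262), Dusp7 for Rad21 (0.0409), Ror2 for Stag1 (0.0442) and Zfx for Stag2 (0.0229). Among the members themselves Smc2 and Smc4 were closest (0.14) and Smc4 and Stag1 farthest apart (1.06). These distances rest on 4 group means, and many genes can lie near a pattern of so few points.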

How the data were processed

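RNA was hybridized to 12 Affymetrix arrays (6 µg each); the design text describes 4 RNA samples with 3 hybridizations each. The authors deposited a linear signal intensity for each probe set, made with MAS5 per the labels and the submitters' processing notes. Its version, scaling target and detection calls are not given in the sources used here, so no background level could be set. Trimmed means (2% off each end) of the arrays were 500.1 to 500.2, which shows a common scale, and array medians were 161.1 to 190.0. Precision between hybridizations is limited by the number of arrays, and the spread between cultures or embryos was not measured.

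The 10th percentile of the table, 10.4, was added to each signal before taking log2, so fold changes of weak genes come out too small. Tests covered 13575 probe sets, once 64 controls and the weakest 40% by mean log2 (a signal under about 104.6) were dropped. By the annotation 20393 probe sets had a single symbol, 691 had several and 1606 had none. The main probe set of a gene was its brightest without an _x, _f, _r, _i or _g suffix (_a_at and _s_at sets were allowed), which gave 7909 genes. Group means were fitted jointly in limma 3.58.1 under R 4.3.3 (lmFit; eBayes, trend on; residual df 8, prior df 6.09), and two-sided p-values were adjusted by Benjamini-Hochberg over all 13575. Calls needed an adjusted p under 0.05 and a change of 1.5-fold or more. The script was tested on simulated data. Groups came from the sample labels, with no replicate block because same-labelled arrays did not deviate together.

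The members, the partner and marker lists and the tests were chosen with earlier results of these data known. Named genes are the 10 members, the partner lists and a selection of the 3 nearest genes of each member. Alternatives changed the pseudocount (1 or 45.8), the filter (none, or 60% left out), the scaling (quantile or median), the variance trend, the fold minimum (none or 2-fold), the groups in the fit, the probe set, the block, or left out 1 array; a fit lacking the untreated wildtype arrays was added once their sex-linked RNA was known. Python 3.11.15 was used for summaries.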

Additional observations from a re-analysis of the deposited data

Results flagged for a closer look

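For 7 members the cisplatin response differed between the genotypes by a direct test (limma, Rb null response minus wildtype response on the log2 scale): Smc2 by -0.75, Ncapd2 by -1.54, Ncapg by -1.02, Ncaph by -1.10, Rad21 by -0.69, Stag1 by -1.33 and Stag2 by -0.69. For Ncapd2 the change was upward in wildtype and downward in Rb null cells, for Stag1 it was downward in both and larger in Rb null cells. Each of these values uses the untreated wildtype arrays, which differ from the others in Xist and Y-linked RNA, so genotype and sex-linked RNA cannot be told apart in them. Over all probe sets 14.4% were called lower and 8.64% higher in this contrast. Among the markers, 8 of 10 for fibroblasts (median -1.28) and 8 of 10 for macrophages and leukocytes (median -1.68) were called lower. The median over the members was -0.72, and the part of the markers was not tested. The second Stag2 probe set gave -0.58 and was not called.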

How the results depend on the processing

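Of 1175 values of single members under an alternative, 1102 kept their direction and side of the thresholds, 41 lost a call, 19 gained one and 13 changed sign. The counts of probe sets called, 1678 and 3002 between untreated and treated genotypes, 3626 and 4982 for the wildtype and Rb null responses and 3132 for the difference of responses, became 1078, 1906, 2297, 3257 and 2021 with only the upper 40% of probe sets tested. They became 4598, 6968, 7413, 8756 and 5109 with no fold minimum and 598, 928, 1581, 2352 and 1191 with a 2-fold minimum.

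With a 2-fold minimum 5 members were called higher in untreated Rb null cells, 1 higher and 0 lower in treated Rb null cells, 1 higher and 0 lower with drug in wildtype cells, 1 lower with drug in Rb null cells and 4 lower for the difference of responses. Of all 13575 probe sets, 434 were called higher in untreated and 371 higher and 557 lower in treated Rb null cells. With drug 737 were higher and 844 lower in wildtype cells and 1433 lower in Rb null cells. For the difference of responses 788 were lower. With no fold minimum 7 members were called higher in treated Rb null cells, 2 lower with drug in wildtype and 1 higher with drug in Rb null cells. Of all 13575 probe sets, 3063, 3385 and 4120 were called in the same directions. The single lower member in treated Rb null cells, Stag1, gave 0 when the next probe set was used. The single lower member in wildtype cells, also Stag1, gave 0 with the larger pseudocount, with median centring and without untreated wildtype array 2 or 3 or treated wildtype array a or c, so that leaving out 1 array gave 0 to 1 lower and 3 to 5 higher members there.

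The next probe set turned Smc3 to -0.14 between untreated genotypes, -0.40 for the wildtype response and 0.47 for the difference of responses, Smc4 to 0.35 for the last and Stag2 to 0.08 for the wildtype response. Ncapg in Rb null cells was 0.055 after quantile normalization and 0.067 after median centring. Leaving out 1 array gave -0.16 to 0.029 for that value, -0.11 to 0.17 for Ncaph between treated genotypes, -0.24 to 0.024 for Stag2 in wildtype and -0.029 to 0.14 for Smc3 in Rb null cells; none of these values was called. Calls lost near the fold minimum were those of Smc2 in wildtype cells (0.57 with the larger pseudocount, 0.58 after quantile normalization), Ncaph in wildtype (0.56 without untreated array 3) and Ncapd2 in Rb null cells (-0.58 with the larger pseudocount and after quantile normalization, -0.46 after median centring).

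To look for pairing, the group mean of each probe set was subtracted from each array. These deviations of same-labelled arrays of the 2 genotypes correlated at -0.159, 0.109 and -0.186 without drug. With drug the values were -0.021, 0.084 and -0.001, so the labels do not pair the samples. With a replicate block 1685, 3008 and 3061 probe sets were called between untreated genotypes, between treated genotypes and for the difference of responses, and the counts of members called were as without it. No paired analysis was possible for the cisplatin responses because untreated and treated arrays share no labels. In the fit without the untreated wildtype arrays 2995 and 4988 probe sets were called between treated genotypes and for the Rb null response, with 3 members higher and 1 lower, and 4 lower. The cause of these changes was not tested; the arrays' number and the lack of detection calls limit weak probe sets such as Ncapg and the second Smc3 set.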
